A study of Mus musculus with 6 samples.

Results

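Siglec1 encodes CD169, and the data hold 3 readouts tied to it: the Siglec1 transcript, the Tomato transcript of the lineage reporter that Siglec1-driven Cre switches on, and an oligonucleotide-tagged antibody to CD169 on the cell surface. These were taken as the rows named Siglec1 and Tomato, 2 of the 32287 rows of the gene matrix, and the CD169 row, 1 of the 6 antibodies. They were read in the 12139 of 18662 cell barcodes in which 1 hashtag held at least 80% of the hashtag counts, with at least 10 counts, and at most 25% of the UMIs were mitochondrial. The members were picked by name and not by a measured value.

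The experiment was a CITE-seq run, in which mRNA and antibody tags are counted in the same single cells, on sorted CD11b hi, Tomato-positive cells of mouse inguinal lymph nodes. All 4 mice, over 6 weeks of age on a C57BL/6J background, were Cd169Cre/+.Tdtomatofl/fl, so the unimmunized mice carried the same alleles as the immunized ones. Cre was inserted into 1 Siglec1 allele, and the tdTomato cassette sat at Rosa26 behind a floxed stop and a CAG promoter. Of these mice, 2 had received hen egg lysozyme (HEL) as immunization and were taken at day 9, and 2 were left unimmunized. Each mouse had its own hashtag antibody, and the stained cells were pooled and divided over 2 captures. The replicates are therefore mice, and a hashtag reagent and its mouse cannot be told apart.

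CD169 is a lectin that binds sialic acid on other cells, on pathogens and on vesicles, and it marks the macrophages that line the subcapsular and medullary sinuses of the lymph node. Its gene is also induced by type I interferon in monocytes and macrophages. The Cre label works differently from the other readouts: once a cell has switched on Siglec1, the stop cassette is cut out, and the cell and its progeny keep Tomato whether or not Siglec1 stays on. By this design a cell that makes Tomato has a history of Siglec1 expression or is the offspring of such a cell. The Siglec1 transcript and the antibody report the present state. Whether every sorted cell made its own Tomato was not tested.

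The antibody signal rests on a tag of 15 bases, and tags that resemble each other are harder to tell apart, so the tags of the panel are shown with the closest hashtag. Capitals mark bases that equal the CD169 tag at the same position.
CD169: ATTGACGACAGTCAT
CD68: cTTtctttCAcggga
F4/80: tTaacttcagccCgT
CD11c: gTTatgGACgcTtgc
Ly-6c: AagtcgtgagGcatg
Ly-6g: AcattgacgcaaCta
Hashtag 3: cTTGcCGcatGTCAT
The other 5 antibody tags differed from the CD169 tag at 9 to 13 of the 15 positions. Hashtag 3, which marked immunized mouse 1, was the nearest tag and differed at 5 positions. Siglec1 itself (ENSMUSG00000027322) lies on the minus strand at chr2:131069220-131086765 of GRCm38 (mm10), and the longest of its 3 annotated transcripts has 21 exons and 6387 bases.

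The kept cells numbered 2828 and 537 in the unimmunized mice against 4052 and 4722 in the immunized mice. Median depth was lower in the unimmunized mice, at 5877 and 6280 UMIs per cell, than in the immunized mice, at 9674 and 12728. Median hashtag counts ran the other way, at 1050 and 966 in the unimmunized mice against 516 and 524 in the immunized mice. Cells were assigned to 16 types by lists of marker genes, none of which held Siglec1, and to a further set named by its gate genes, Pla2g2d-high cells (Lyz1, Il22ra2, Prg3, Pla2g2d and Cd200). These gates took 7541 cells and left 4598 ungated, and 598 of the gated cells (7.93%) lay within 0.1 of a gate limit. The gate limits were set after marker scores, clusters and cell numbers per mouse had been seen. Although the sort was for CD11b hi cells, 504 gamma-delta T-like, 305 alpha-beta T-like, 413 NK-like and 296 B cell-like cells were among those gated. As the antibody tables carry no capture ending, 621 barcode sequences found in both captures could not be assigned and their 1242 barcodes were left out. In all, 11 sets had at least 10 cells in every mouse and are compared with n = 4 mice.

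Both transcripts were sparse. Siglec1 had 2465 UMIs in 1768 cells (14.6%) and at most 9 in a cell, and Tomato had 633 UMIs in 594 cells (4.89%) and at most 4 in a cell. Although every cell was sorted on Tomato fluorescence, most thus had no Tomato UMI, and which part of the reporter transcript the Tomato row covers was not stated in the sources used here. A Tomato UMI was present in 7.81% of the cells with a Siglec1 UMI and in 4.40% of the cells without one, a comparison that was not thinned and follows cell depth as well. Levels are given as CPM, the UMIs of a gene scaled to a common library total, over the summed cells of a type in a mouse, a value that does not separate fewer expressing cells from less RNA per cell. Siglec1 and Tomato levels are not compared with each other, since the length of the Tomato row is unknown.

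Among the 11 sets with at least 10 cells in every mouse, Siglec1 mRNA was highest in the interferon-high monocyte-like cells. These had 57.9 and 43.9 CPM in the unimmunized mice against 41.3 and 37.4 CPM in the immunized mice. C1q macrophage-like cells, the macrophages that express C1qa, C1qb and Apoe, had 34.1 and 18.4 CPM in the unimmunized mice against 15.3 and 27.2 CPM in the immunized mice. The 56 such cells of unimmunized mouse 1 were shallow, with a median of 1878 UMIs. Those of unimmunized mouse 2 and immunized mice 1 and 2 had 9599, 10804 and 15049. Every interferon-high value was above every C1q macrophage-like value, and the unimmunized and immunized mice overlapped in the macrophages. The unimmunized macrophage values rested on 9 and 3 UMIs, with 95% exact Poisson intervals of 15.6 to 64.8 and 3.80 to 53.8 CPM. These overlapped the intervals of the interferon-high cells of the same mice, 41.2 to 79.1 and 20.1 to 83.3 CPM. The interferon-high cells were gated on interferon response genes and type I interferon induces Siglec1, so their rank is not independent of the gate.

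The next levels were lower and closer together. Pla2g2d-high cells had 17.1 and 18.1 CPM of Siglec1 in the unimmunized mice against 13.8 and 12.5 CPM in the immunized mice, the narrowest spread of the upper ranks. Nonclassical monocyte-like cells, which patrol vessels and carry Ace and Treml4, had 12.3 and 6.53 CPM in the unimmunized against 9.56 and 18.8 CPM in the immunized mice. Among dendritic cells, the Cd209a DC-like cells ranged from 0 to 17.6 CPM and the type 1 DC-like cells, which cross-present antigen, from 4.00 to 10.4 CPM. Migratory DC-like cells, marked by Ccr7, were lowest of the 11 sets with 0 to 5.79 CPM. The lymphocytes sat in the same low range, with B cell-like cells at 3.59 to 11.6, alpha-beta T-like cells at 4.09 to 12.9 and NK-like cells at 3.93 to 7.81 CPM. Gamma-delta T-like cells had 6.27 and 19.4 CPM, from 17 and 4 UMIs, in the unimmunized mice and no Siglec1 UMI in either immunized mouse, where 3 counts would have been 6.93 and 26.6 CPM.

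**Figure D1:**
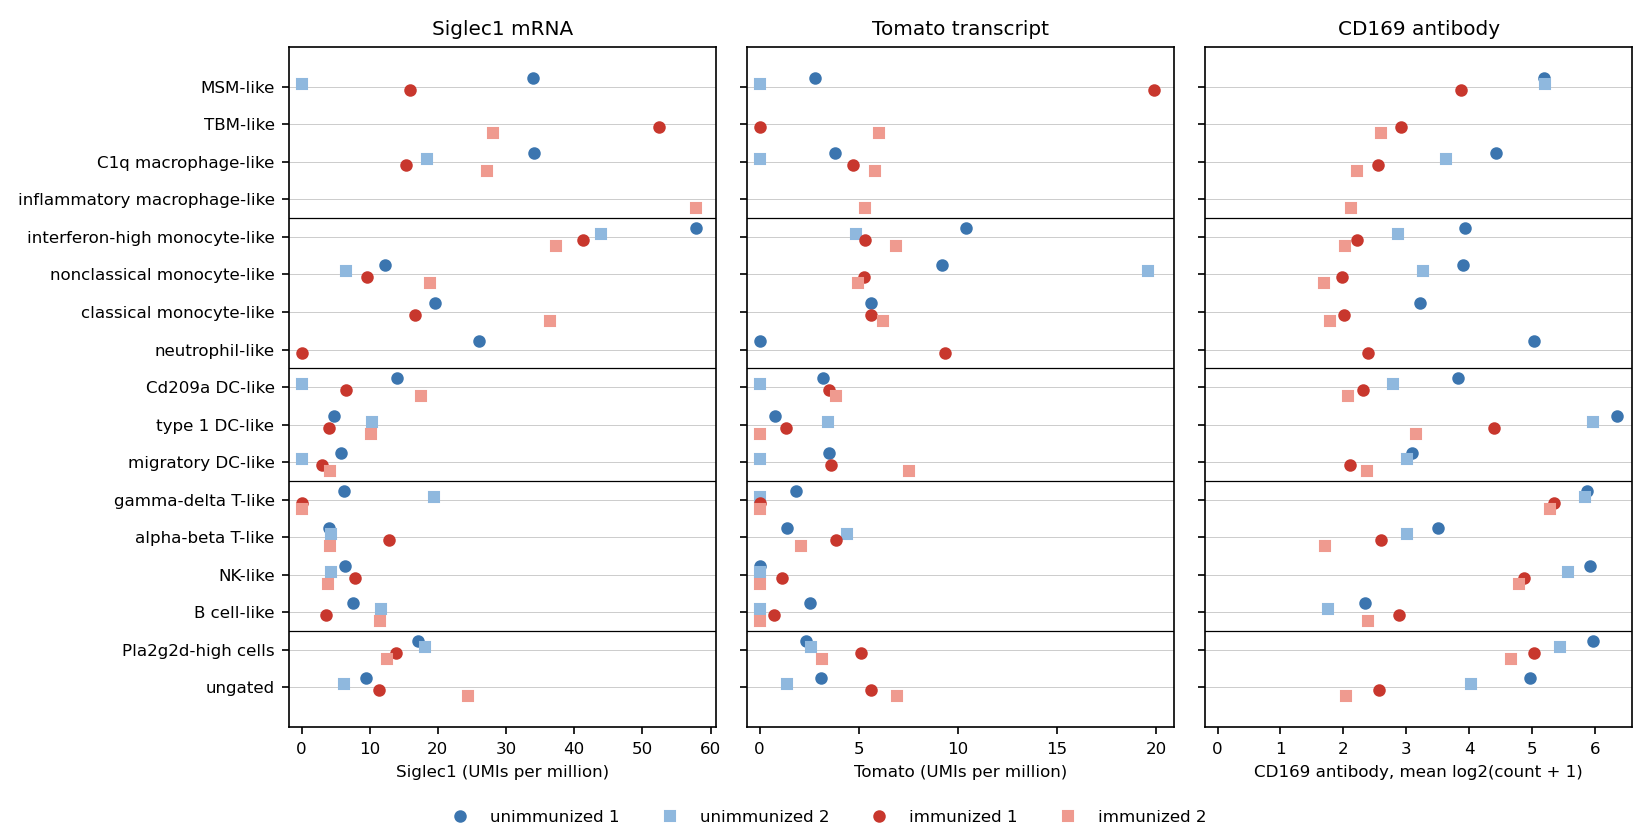
Siglec1 CPM (left), Tomato CPM (middle) and mean log2(CD169 antibody count + 1) (right) for each gated type with at least 10 cells in a mouse, 1 point per mouse, with unimmunized mice in blue and immunized mice in red. The 4 interferon-high monocyte-like points for Siglec1 sit between 37.4 and 57.9, whereas the antibody has its highest mean in the gamma-delta T-like cells, between 5.29 and 5.87.

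In the order of mean Siglec1 level, the interferon-high monocyte-like cells (45.1 ± 8.92 CPM, SD, n = 4) exceeded the C1q macrophage-like cells (23.8 ± 8.56) by more than the spread over mice, with a within-mouse difference of 21.4 ± 7.51 CPM in 4 of 4 mice. The steps from C1q macrophage-like to Pla2g2d-high cells (15.4 ± 2.62) and on to nonclassical monocyte-like cells (11.8 ± 5.22) did not exceed the spread of the within-mouse differences. No other neighbours in the order differed beyond it, down to the migratory DC-like cells at 3.25 ± 2.45 CPM.

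The share of cells with a Siglec1 UMI also follows depth, so it was computed both on all UMIs and after each cell was thinned to 1000 UMIs. B cell-like cells, which should lack the transcript, had a Siglec1 UMI in 4.39% of cells at a median of 4542 UMIs, and in none of 296 cells after thinning, which allows a share of up to 1.01% and covers counting error only. In interferon-high monocyte-like cells the share was 31.8% at a median of 11209 UMIs and 5.14% after thinning. C1q macrophage-like cells had 24.7% at 13792 UMIs and 3.02% after thinning. Pla2g2d-high cells, with a median of 4347 UMIs, had 6.88% and 1.36%. Nonclassical monocyte-like cells (9.24%, thinned 1.68%, median 8442 UMIs) and Cd209a DC-like cells (11.8%, thinned 1.81%, median 12873 UMIs) had shares near that. The lowest shares were those of NK-like cells (3.63%, thinned 0.726%), alpha-beta T-like cells (3.93%, thinned 0.328%), gamma-delta T-like cells (3.97%, thinned 0.992%), migratory DC-like cells (3.99%, thinned 0.285%) and type 1 DC-like cells (8.57%, thinned 0%, which allows up to 1.71% in 175 cells). Thinned shares this low lie near that of 1 UMI and are given without an order, and the limit from the B cell-like cells is one on cells with a UMI, not on cells that express the gene.

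Macrophages that the gates found in some mice alone are given as values without a test. Inflammatory macrophage-like cells (Nos2, Acod1 and Arg1) had 57.8 CPM of Siglec1 in immunized mouse 2, from 229 UMIs in 234 cells, and a UMI in 52.6% of those cells, with at most 4 such cells in any other mouse. The interferon-high monocyte-like cells of that mouse had less, at 37.4 CPM. TBM-like cells, gated on Pf4, Itga9, Stab1 and other genes of tingible body macrophages, had 52.4 CPM (95% exact Poisson interval 27.9 to 89.6) in 20 cells of immunized mouse 1 and 28.1 CPM (15.3 to 47.1) in 33 cells of immunized mouse 2. These 2 intervals overlapped, and the value of immunized mouse 1 was above the 41.3 CPM of its interferon-high monocyte-like cells. MSM-like cells, gated on Marco, Cd209b and Timd4 of medullary sinus macrophages, had 33.9 CPM in unimmunized mouse 1 and 15.9 CPM in immunized mouse 1, from 12 UMIs in 172 cells and 4 UMIs in 80 cells. The MSM-like barcodes were shallow, with a median of 1924 UMIs, but the thinned share with a Siglec1 UMI was 4.14%. This was near that of the C1q macrophage-like cells, which were much deeper in all mice but unimmunized mouse 1. Classical monocyte-like cells (Ly6c2, Ccr2) had 19.6, 16.7 and 36.5 CPM in unimmunized mouse 1 and immunized mice 1 and 2, and the 6 cells of unimmunized mouse 2 held 3 UMIs. The ungated cells had 9.45 and 6.24 CPM in the unimmunized against 11.4 and 24.4 CPM in the immunized mice.

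Comparisons of the transcripts used counts summed per mouse and type, in 55 libraries and 11219 genes, with edgeR's quasi-likelihood test and Benjamini-Hochberg adjustment over those genes. With 10 cells per library required in all 4 mice, macrophages meant the C1q macrophage-like cells, monocytes ("monocytes and neutrophils" in the plot of contrasts, although no neutrophil library was large enough) the interferon-high and nonclassical types, dendritic cells the Cd209a, type 1 and migratory types, and lymphocytes all 4 lymphoid types. Siglec1 was higher in macrophages than in lymphocytes, with a log2 fold change of 2.77 (SE 0.53, edgeR adjusted p = 5.42e-05), in a contrast where 20.3% of the genes tested were called higher, 13.7% lower and 34.0% in either direction. The balance of all calls depends on the scaling, with 2276 genes higher and 1539 lower by TMM, 1981 and 2123 by RLE, and 1813 and 1736 by DESeq2, and the median of all genes moves from 0.00 to -0.14 with RLE. Because the immunized gamma-delta T-like libraries held no Siglec1 UMI, this fitted value depends on the prior count. With all gated macrophages and all lymphocytes summed, the 4 macrophage levels (18.2 to 34.0 CPM) lay above the 4 lymphocyte levels (5.86 to 9.34 CPM), a mean log2 ratio of 1.87 ± 0.68 (SD, n = 4). Without unimmunized mouse 1, the call was lost (2.36, edgeR adjusted p = 0.126).

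Siglec1 was also higher in macrophages than in dendritic cells, by 1.76 on the log2 scale (SE 0.42, edgeR adjusted p = 0.00269), where 8.39% of genes were called higher, 6.44% lower and 14.8% in either direction. The summed levels of dendritic cells were 8.88, 4.85, 5.21 and 12.9 CPM in the same mouse order as above, each below the macrophages of its mouse. This call was lost without unimmunized mouse 1 (3.54), in capture 1 alone (1.88, edgeR adjusted p = 0.0820) and in capture 2 alone (0.99, edgeR adjusted p = 0.382). Without unimmunized mouse 1, the unimmunized dendritic cells held 3 Siglec1 UMIs in all. Dendritic cells were the type 1 DC-like cells alone in capture 1 and the Cd209a DC-like cells alone in capture 2. Neither capture thus repeated the main contrast. Against monocytes, whose summed levels including classical cells and neutrophils were 28.8, 31.1, 20.4 and 34.6 CPM, Siglec1 in macrophages gave a log2 fold change of 0.04 (SE 0.35, edgeR adjusted p = 1.00), with 4.38% of genes called higher, 5.74% lower and 10.1% in either direction.

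Within the monocytes the types differed. In contrasts added after the levels had been seen, Siglec1 was higher in the interferon-high than in the nonclassical monocyte-like cells by 2.00 on the log2 scale (SE 0.37, edgeR adjusted p = 1.62e-04), where 4.47% of genes were called higher, 3.56% lower and 8.03% in either direction. Siglec1 was not a gate gene, but type I interferon induces it and the cells were gated on interferon response genes. This difference is therefore not independent of the gate. Without unimmunized mouse 1, the value was 2.28 with an edgeR adjusted p of 0.212. Between interferon-high monocyte-like cells and macrophages the difference of 0.96 (SE 0.36) had an edgeR adjusted p of 0.109 and was not called, with 4.62% of genes called higher, 1.62% lower and 6.24% in either direction. With the mouse as a block, which pairs the libraries of 1 animal, the same difference was 0.99 with an edgeR adjusted p of 0.0364. In Pla2g2d-high cells, Siglec1 was higher than in lymphocytes by 2.42 (SE 0.45, edgeR adjusted p = 1.66e-05), against a broad background in which 31.1% of genes were called higher, 20.6% lower and 51.7% in either direction. These 3485 higher and 2312 lower genes became 2536 and 3631 with RLE and 2086 and 3249 with DESeq2, and the median of all genes moved from 0.09 to -0.24 and -0.32. With gamma-delta T-like libraries at 0 the fitted fold depends on the prior count, and the summed levels were higher in 4 of 4 mice, by a mean log2 ratio of 1.17 ± 0.23 (SD, n = 4).

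The type I interferon list (19 of its 20 genes tested, 7 of them also genes of the interferon-high gate) was read beside Siglec1. All 19 were higher in interferon-high than in nonclassical monocyte-like cells, where 4.47% of all genes were. The list's median log2 fold change was 2.67 beside 0.02 over all genes. The gate fixes part of that count. The 12 members outside the gate were higher as well, among them Isg15, a ubiquitin-like modifier (3.16, SE 0.35), Usp18, which removes it (3.32, SE 0.26), and Stat2, a subunit of the interferon-responsive factor (2.10, SE 0.19). Because the cells were selected on interferon response genes, members outside the gate are not independent of that selection. All 19 were also higher in interferon-high cells than in macrophages, where 4.62% of all genes were, with a median of 2.68 beside 0.03. The same selection enters this count. In macrophages against lymphocytes 16 were higher and none lower, where 20.3% of all genes were higher. Among them were Irf7 (2.10, SE 0.27) and Oasl2 (2.50, SE 0.27), with a median of 1.34 beside 0.00. Against dendritic cells 11 were higher, where 8.39% of all genes were, with a median of 0.76 beside -0.03. Against monocytes 15 were lower and none higher, where 5.74% of all genes were lower. The median was -1.18 beside -0.03, in the contrast in which the Siglec1 value was near 0. As the interferon-high cells are part of that monocyte class, their gate enters this count too, and 9 of the 12 members outside the gate were lower. In Pla2g2d-high cells 4 were higher than in lymphocytes (Cxcl10, Oasl2, Usp18 and Bst2) and Xaf1 was lower, where 31.1% and 20.6% of all genes were. The median was 0.02 beside 0.09, and the balance turned to 3 higher and 5 lower with RLE and 2 and 5 with DESeq2 (median -0.33 in both).

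Of the other sialic acid binding lectins, 6 of 7 were tested, and 4 were higher in macrophages than in lymphocytes, where 20.3% of all genes were. They were Siglece, an inhibitory receptor of myeloid cells (3.74, SE 0.54), Siglech (2.76, SE 0.83), Mag (2.76, SE 0.74) and Cd33 (1.81, SE 0.39), with a list median of 2.29 beside 0.00 over all genes. Against dendritic cells Siglece, Siglech and Cd33 were higher and Siglecg, best known from B cells, was lower (-4.09, SE 0.47), with a median of 1.88 beside -0.03 and against 8.39% and 6.44% of all genes. Against monocytes Cd33 (1.62, SE 0.39) and Siglech (3.57, SE 0.91) were higher, with a median of 1.76 beside -0.03, where 4.38% of all genes were. Pla2g2d-high cells had higher Cd33 (4.34, SE 0.27), Mag (3.55, SE 0.47) and Siglech (3.59, SE 0.70) than lymphocytes, with a median of 2.46 beside 0.09, where 31.1% of all genes were higher. In both interferon-high contrasts no lectin of the list was called in either direction, with medians of 0.70 against nonclassical monocytes (0.02 over all genes) and -1.26 against macrophages (0.03).

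The 8 genes that CD169 macrophages are known to need were all higher in macrophages than in lymphocytes, against 20.3% of all genes, with a median of 2.63 beside 0.00. With RLE or DESeq2, 7 of the 8 were. They include Csf1r, the receptor for macrophage colony-stimulating factor (3.17, SE 0.23), Tnfrsf11a, the RANK receptor (2.51, SE 0.40), Ltbr, the lymphotoxin receptor (2.75, SE 0.35), and Nr1h3, the liver X receptor alpha (2.51, SE 0.23). Of the list, 7 genes are in no gate, and all 7 of them were higher. Against dendritic cells 6 were higher and Irf8, a regulator of dendritic cell development, was lower (-0.58, SE 0.19), with a median of 2.20 beside -0.03 and against 8.39% and 6.44% of all genes. Against monocytes 3 were higher, among them Nr1h3 (1.03, SE 0.23) and Maf (1.87, SE 0.26), with a median of 0.74 beside -0.03, where 4.38% of all genes were. In interferon-high monocyte-like cells 3 were lower than in macrophages, among them Nr1h3 (-1.40, SE 0.27) and Maf (-1.04, SE 0.29), with a list median of -0.63 beside 0.03, where 1.62% of all genes were lower. Maf was higher there than in nonclassical cells (1.67, SE 0.34), with a list median of -0.07 beside 0.02, where 4.47% of all genes were higher. In Pla2g2d-high cells 7 of the 8 were higher than in lymphocytes and Maf was lower (-0.72, SE 0.26), with a median of 2.20 beside 0.09 and against 31.1% and 20.6% of all genes.

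Tomato mRNA rested on few UMIs in the myeloid types. Nonclassical monocyte-like cells had 9.22 and 19.6 CPM in the unimmunized mice against 5.26 and 4.94 CPM in the immunized mice, the 19.6 CPM resting on 3 UMIs (95% exact Poisson interval 4.04 to 57.3). Interferon-high monocyte-like cells had 10.4 and 4.87 CPM in the unimmunized against 5.33 and 6.86 CPM in the immunized mice. C1q macrophage-like cells had 3.79 CPM and no UMI in the unimmunized mice against 4.73 and 5.82 CPM in the immunized mice. These ranges overlapped one another.

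Despite the sort, Tomato was low in NK-like, B cell-like and gamma-delta T-like cells, while the mean of alpha-beta T-like cells lay within those of the dendritic types. NK-like cells had 1 Tomato UMI in 413 cells, B cell-like cells 2 in 296, gamma-delta T-like cells 5 in 504 and alpha-beta T-like cells 6 in 305. Summed over the lymphocytes, Tomato had 1.33, 1.33, 1.43 and 0.837 CPM, from 7, 1, 5 and 1 UMIs, and the monocytes of the same mice, classical cells and neutrophils included, had 8.64, 9.57, 5.52 and 6.24 CPM. The monocytes were above the lymphocytes in 4 of 4 mice, with a mean log2 ratio of 2.60 ± 0.44 (SD), to which lymphocyte sums of 1 UMI contributed in 2 mice.

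In the order of mean Tomato level, nonclassical monocyte-like cells (9.75 ± 6.84 CPM, SD, n = 4) and interferon-high monocyte-like cells (6.86 ± 2.50) led, followed by migratory DC-like cells (3.66 ± 3.09), C1q macrophage-like cells (3.58 ± 2.53) and Pla2g2d-high cells (3.29 ± 1.25). Alpha-beta T-like cells (2.92 ± 1.44) came next, then Cd209a DC-like (2.63 ± 1.77) and type 1 DC-like cells (1.40 ± 1.48). B cell-like (0.809 ± 1.19), gamma-delta T-like (0.461 ± 0.921) and NK-like cells (0.279 ± 0.558) were lowest. No neighbours in this order differed by more than the spread over mice. The thinned shares with a Tomato UMI, 0.952% in interferon-high monocyte-like, 0.855% in migratory DC-like, 0.326% in C1q macrophage-like and 0.338% in B cell-like cells, were too close to that of 1 UMI to be ordered.

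The tests on Tomato were limited by these counts. Tomato differed between macrophages and lymphocytes by 2.27 on the log2 scale (SE 0.98, edgeR adjusted p = 0.0856), between macrophages and dendritic cells by 0.50 (SE 0.77, adjusted p = 0.799) and between macrophages and monocytes by -1.09 (SE 0.59, adjusted p = 0.298), none of them called. The interferon-high contrasts gave 0.06 (SE 0.43, adjusted p = 1.00) against nonclassical monocytes and 1.12 (SE 0.64, adjusted p = 0.396) against macrophages. Tomato was called higher in Pla2g2d-high cells than in lymphocytes, by 2.50 (SE 0.63, edgeR adjusted p = 9.36e-04), but 2 lymphocyte groups (gamma-delta T-like of immunized mice and NK-like of unimmunized mice) had no Tomato UMI and the fold depends on the prior count. The test had a value under 12 other settings, against 18 for Siglec1 in the same contrast. Among those without a value were the fits without unimmunized mouse 1 or either immunized mouse, and capture 2 alone. Tomato did not pass the filter on low counts there. The summed levels of the Pla2g2d-high cells were 2.35, 2.58, 5.09 and 3.13 CPM, from 4, 1, 14 and 3 UMIs, each above the lymphocytes of its mouse.

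**Figure D2:**
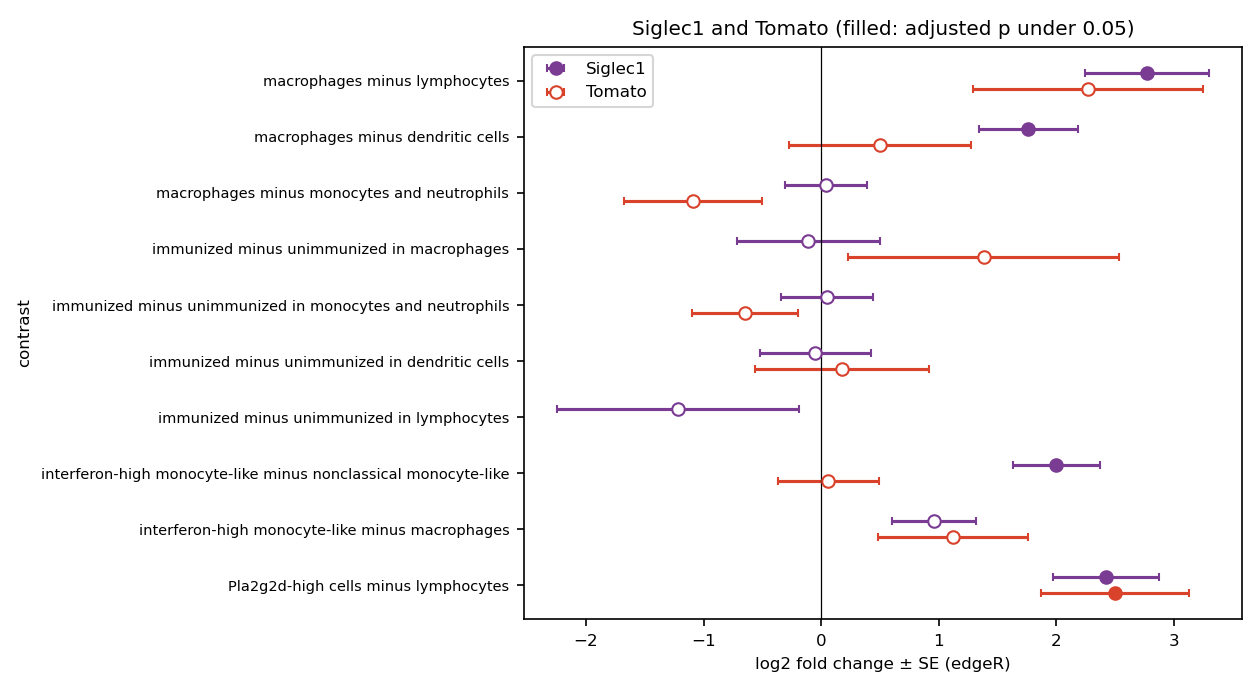
Log2 fold change of Siglec1 (purple) and Tomato (red) with its standard error from edgeR for each contrast, filled where the adjusted p was under 0.05. Siglec1 is called in 4 contrasts and Tomato in Pla2g2d-high cells minus lymphocytes, where Siglec1 is at 2.42 and Tomato at 2.50, and no point is drawn for Tomato by immunization in lymphocytes because its standard error could not be estimated.

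The CD169 antibody gave another order. On the mean log2(count + 1) scale, gamma-delta T-like cells had 5.87 and 5.85 in the unimmunized mice against 5.36 and 5.29 in the immunized mice, and NK-like cells had 5.92 and 5.57 against 4.87 and 4.79. Pla2g2d-high cells had 5.98 and 5.44 against 5.04 and 4.66. Type 1 DC-like cells were as high in the unimmunized mice, at 6.36 and 5.97, but at 4.40 and 3.16 in the immunized mice, a gap wider than in the other 3 sets.

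The types with the most Siglec1 mRNA were lower on this scale. C1q macrophage-like cells had 4.43 and 3.63 in the unimmunized mice against 2.55 and 2.21 in the immunized mice. Interferon-high monocyte-like cells had 3.94 and 2.87 against 2.21 and 2.02, and nonclassical monocyte-like cells had 3.91 and 3.26 against 1.98 and 1.70. The 2 monocyte types overlapped in the unimmunized mice, and in the immunized mice both interferon-high values lay above both nonclassical ones. MSM-like cells stood higher than these macrophages and monocytes, at 5.20 and 5.21 against 3.87 and 3.20, with 10 cells in unimmunized mouse 2 and 8 in immunized mouse 2. B cell-like cells had the lowest mean of the 11 sets, with values from 1.76 to 2.89.

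In the order of antibody means, gamma-delta T-like cells (5.59 ± 0.31, SD, n = 4) exceeded NK-like cells (5.29 ± 0.55) by 0.30 ± 0.26 in 3 of 4 mice. Pla2g2d-high cells (5.28 ± 0.56) and type 1 DC-like cells (4.97 ± 1.47) followed without a difference beyond the spread. A wide step then separated type 1 DC-like from C1q macrophage-like cells (3.20 ± 1.02), at 1.77 ± 0.59 in 4 of 4 mice, and a smaller one separated these from interferon-high monocyte-like cells (2.76 ± 0.87), at 0.44 ± 0.24 in 4 of 4 mice. Below that, from 2.76 down to 2.35 ± 0.46 in B cell-like cells, no neighbours differed beyond the spread. The share of cells with at least 32 CD169 counts, a limit chosen after the counts were seen, was 87.5%, 90.9%, 71.4% and 60% in gamma-delta T-like cells of unimmunized mice 1 and 2 and immunized mice 1 and 2. It was 86.6%, 76.9%, 47.3% and 35.3% in NK-like cells and 81.9%, 66.7%, 57.1% and 42.4% in Pla2g2d-high cells. C1q macrophage-like cells had 46.4%, 20%, 3.77% and 0.451% and B cell-like cells 15%, 13.3%, 15% and 14.6%, so the macrophages were above the B cell-like cells in both unimmunized mice and below them in both immunized mice.

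In the antibody tests by class, macrophages again meant the C1q macrophage-like cells alone. Macrophages and lymphocytes differed by -0.78 ± 0.69 (SD, n = 4, two-sided exact sign-flip permutation test, p = 0.250), with the macrophages higher in 1 of 4 mice. The lymphocyte class joined unlike types. Means were 5.59 in gamma-delta T-like and 5.29 in NK-like cells, but 2.71 in alpha-beta T-like and 2.35 in B cell-like cells. The C1q macrophage-like mean of 3.20 lay between these pairs. The MSM-like cells, outside this test, were above the lymphocyte class in the unimmunized mice (5.20 and 5.21 against 4.41 and 4.05). They were below it in the immunized mice (3.87 and 3.20 against 3.93 and 3.55). Macrophages were not above dendritic cells in any mouse, with 4.43 in both classes in unimmunized mouse 1 and a mean difference of -0.25 ± 0.17 (exact permutation p = 0.125), a direction that turned to between 0.33 and 0.53 under 4 of 15 other settings. Those settings compared other sets of types. MSM-like cells joined the macrophages with a hashtag share of 60% and with libraries of at least 5 cells. Dendritic cells were the Cd209a type alone in capture 2 and the migratory type alone with the stricter gate. In the main setting the dendritic class was also split, with means of 4.97 in type 1, 2.75 in Cd209a and 2.65 in migratory DC-like cells. Macrophages were above monocytes in 4 of 4 mice, by 0.47 ± 0.09 (exact permutation p = 0.125). With 4 mice, 0.125 is the smallest p this test allows.

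Other signals moved with the antibody. The antibody to CD68, a mostly lysosomal glycoprotein of macrophages, had means of log2(count + 1) in C1q macrophage-like cells of 3.80, 2.72, 2.08 and 1.65 in unimmunized mice 1 and 2 and immunized mice 1 and 2. Gamma-delta T-like cells had 3.06, 3.23, 3.41 and 2.93, and Pla2g2d-high cells 3.77, 3.85, 3.50 and 3.40. NK-like cells had 3.23, 3.14, 2.77 and 2.86, and type 1 DC-like cells 4.25, 4.23, 3.27 and 2.30. In 3 of the 4 mice the C1q macrophage-like cells thus lay below all 4 of these sets with high CD169 signal, and in unimmunized mouse 1 below the type 1 DC-like cells alone. F4/80, a surface receptor of macrophages, had 4.11, 2.92, 3.23 and 3.01 in C1q macrophage-like cells, above each of the 4 sets in every mouse. Summed hashtag counts in unimmunized mouse 1, where the sets can be compared under 1 reagent, were 10.04, 10.16, 10.75 and 10.35 in the 4 sets, 9.93 in C1q macrophage-like and 9.28 in B cell-like cells. From cell to cell within a type and mouse, the CD169 and hashtag counts rose together in 43 of 43 libraries (Spearman's rho 0.22 to 0.86, median 0.50), CD169 and CD68 in 43 of 43 (median 0.51) and CD169 and F4/80 in 42 of 43 (median 0.29). These points share the staining and capture of each cell, and the part of general antibody binding in the CD169 signal was not tested.

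Macrophage transcripts moved with the antibody in lymphocytes as well. NK-like cells above the median CD169 count of their mouse had 764 to 1069 CPM of the 5 C1q macrophage-like marker genes over the 4 mice, against 137 to 316 CPM below it, higher in 4 of 4 mice and with no marker of the list at 0. The same list was higher above the median in 4 of 4 mice for alpha-beta T-like cells (235 to 622 against 87.2 to 275 CPM) and gamma-delta T-like cells (264 to 480 against 188 to 267 CPM), and in 2 of 4 for B cell-like cells (202 to 1453 against 322 to 894 CPM). The 5 gate genes of the Pla2g2d-high cells were higher above the median in NK-like cells in 4 of 4 mice, at 661 to 1406 against 114 to 393 CPM. For these genes it was also 4 of 4 mice in alpha-beta T-like and B cell-like cells and 3 of 4 in gamma-delta T-like cells. The 8 MSM-like markers were lower in sum, at 29.1 to 281 CPM above and 8.53 to 80.2 CPM below the median in NK-like cells, again higher in 4 of 4 mice, with 1 to 5 of the 8 genes at 0. In gamma-delta T-like, alpha-beta T-like and B cell-like cells these markers were higher above the median in 3 of 4 mice each. In type 1 DC-like cells, the other set with high antibody signal, the C1q list was higher above the median in 3 of 4 mice, the Pla2g2d-high genes in 2 of 4 and the MSM-like list in 1 of 4. The part of macrophage material in the signal of the lymphocytes was not tested.

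**Figure D3:**
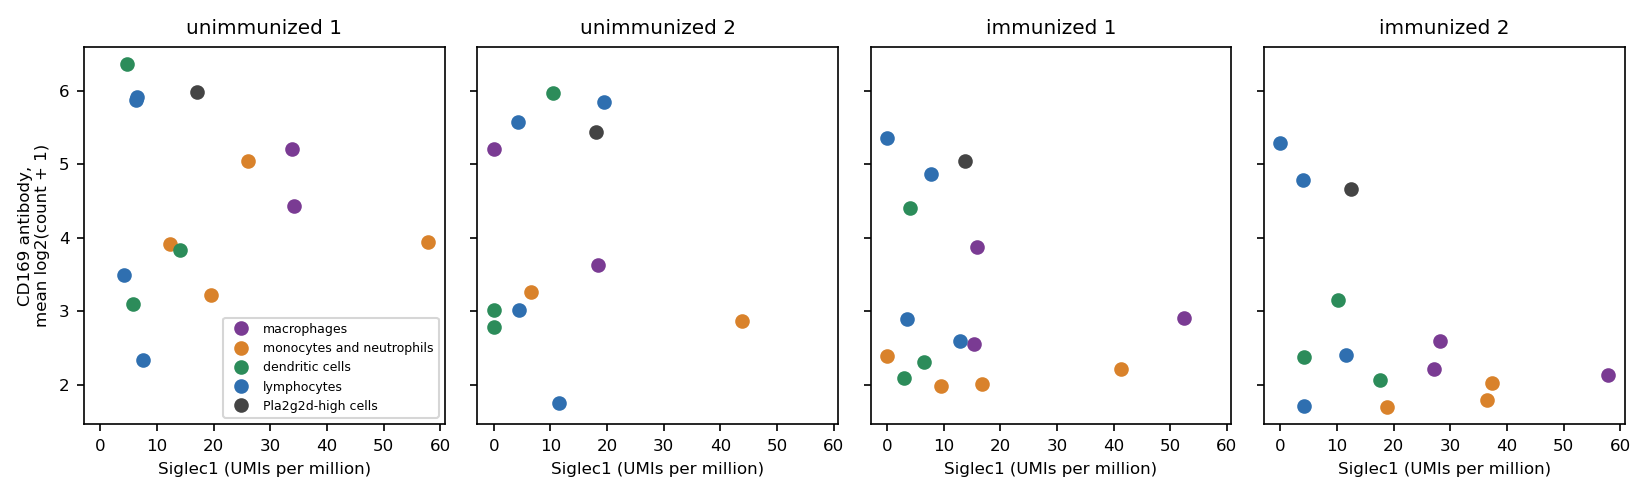
Siglec1 CPM (horizontal) against mean log2(CD169 antibody count + 1) (vertical) in each mouse, 1 point per gated type with at least 10 cells, coloured by class. The lymphocytes and Pla2g2d-high cells with high antibody signal sit at or below 19.4 CPM, and interferon-high monocyte-like cells with 37.4 to 57.9 sit between 2.02 and 3.94 on the antibody scale. The MSM-like cells of unimmunized mouse 1 sit high on both axes, at 33.9 CPM and 5.20.

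Across types, Siglec1 level and CD169 signal did not rise together. Spearman's rho was 0.05 over 14 types in unimmunized mouse 1, 0.15 over 12 types in unimmunized mouse 2, -0.15 over 15 types in immunized mouse 1 and -0.51 over 14 types in immunized mouse 2. Siglec1 and Tomato levels had a rho of 0.49, 0.30, 0.30 and 0.66 in the same mice, and Tomato and the antibody -0.50, 0.00, -0.47 and -0.49. These are descriptions, since the types of a mouse share its libraries and depth.

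For the comparison from cell to cell, macrophages also took in the MSM-like, TBM-like and inflammatory types, each compared within type and mouse. Macrophages with a Siglec1 UMI after thinning had a CD169 signal 0.40 ± 0.42 above those without one (SD, n = 4, exact permutation p = 0.250), higher in 3 of 4 mice. The values were -0.07, 0.92, 0.51 and 0.23, from 13, 2, 8 and 41 cells with a UMI. Lymphocytes with a Siglec1 UMI differed by 0.64 ± 1.14 (exact permutation p = 0.375), with at most 6 such cells in a mouse. For a Tomato UMI the differences were -0.60 ± 0.36 in the macrophages of 3 mice (exact permutation p = 0.250, the smallest possible) and 1.19 ± 1.02 in the lymphocytes of 2 mice, from at most 5 cells a mouse. With 4, 3 and 2 mice the smallest p values this test allows are 0.125, 0.25 and 0.5, so it could not have passed a threshold of 0.05 in any of them.

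Immunization did not move Siglec1 mRNA past the test in any class. Over all kept cells the level was 12.0 and 11.3 CPM in the unimmunized against 13.1 and 27.2 CPM in the immunized mice, and without the inflammatory macrophage-like cells it was 12.0 and 11.3 against 13.1 and 25.1 CPM. In immunized mouse 2 the ungated, C1q macrophage-like and classical monocyte-like cells were also above those of immunized mouse 1. Within classes, the log2 difference between immunized and unimmunized mice was -0.11 (SE 0.61) in macrophages, 0.05 (SE 0.39) in monocytes, -0.05 (SE 0.47) in dendritic cells and -1.22 (SE 1.03) in lymphocytes, with edgeR adjusted p values of 0.999, 1.00, 1.00 and 0.760. The lymphocyte value rests on the gamma-delta T-like libraries without a UMI. Tested against that value, the differences in macrophages, monocytes and dendritic cells were larger by 1.10 (SE 1.21), 1.27 (SE 1.12) and 1.17 (SE 1.17), none of them called (edgeR adjusted p of 1.00, 0.971 and 0.994). The direction turned under at least 1 other setting in each class, and with standard errors of this size equal levels were not shown either.

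Few genes were called by immunization in macrophages and lymphocytes, and in lymphocytes that count depended on how the libraries were formed. In macrophages 0.0267% of genes were called higher, 0.107% lower and 0.134% in either direction, and the median over all genes was 0.16. In monocytes 1.61% were called higher, 1.57% lower and 3.18% in either direction. These 181 higher and 176 lower genes became 57 and 355 with RLE, 28 and 203 with DESeq2, and 3 and 3 with 1 library per mouse. In dendritic cells 4.63% were called higher, 1.27% lower and 5.91% in either direction, and here 520 higher and 143 lower genes became 324 and 300, 257 and 191, and 24 and 37. In lymphocytes 0.0446% were called higher, 0.0178% lower and 0.0624% in either direction. The 5 higher and 2 lower genes there became 5 and 15 with RLE, 29 and 11 with DESeq2, and 301 and 269 with 1 library per mouse. The 3 higher and 12 lower in macrophages became 1 and 15 with RLE, and 0 and 0 with 1 library per mouse. RLE moved the median of all genes from 0.16 to -0.02 in macrophages and from 0.05 to -0.13 in monocytes.

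In dendritic cells 9 of 19 genes of the interferon list were called higher by immunization and none lower, where 4.63% and 1.27% of all genes were. The list median was 1.09 beside 0.03 over all genes. The fit took 3 dendritic libraries from each of 2 mice per condition as separate samples although they share the animal. Under some other settings 1 dendritic type alone entered: type 1 in capture 1, Cd209a in capture 2 and migratory with the stricter gate. With 1 library per mouse no gene of the list was called (median 0.93), nor without unimmunized mouse 1 (2.19), in either capture alone (0.63 and 0.15), with the stricter gate (1.16) or with Leiden clusters (0.38). Leaving out another mouse left 1 to 13 called higher, and 7 were called with RLE or DESeq2. Among the 9 were Cxcl10, a chemokine for activated T cells (2.42, SE 0.43), Oasl1 (3.28, SE 0.73), Oas1a (1.78, SE 0.34), Isg15, Zbp1, Oasl2, Stat2 and Bst2. Siglec1 in the same contrast was at -0.05. In monocytes Cxcl10 was called higher (1.85, SE 0.43), though no member was with 1 library per mouse, with a list median of 0.14 beside 0.05, and in macrophages and lymphocytes no member was called, with medians of 0.34 and 0.00. Of the genes CD169 macrophages need, Maf was lower in monocytes (-1.50, SE 0.35) and Csf1r higher in dendritic cells (1.17, SE 0.27), with list medians of 0.15 and 0.50, neither of which was called with 1 library per mouse, and none was called in macrophages (median -0.23) or lymphocytes (0.12). None of the other sialic acid binding lectins was called in any of the 4 classes, with medians from -1.10 to 0.87.

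Tomato did not pass the test by immunization either. Over all kept cells it had 3.01 and 2.36 CPM in the unimmunized against 4.82 and 6.11 CPM in the immunized mice. The groups thus did not overlap, while median depth per cell was also higher in the immunized mice. The mix of cells differed too. Gated lymphocytes, low in Tomato in every mouse, were 811 of 2828 and 119 of 537 kept cells in the unimmunized mice. In the immunized mice they were 438 of 4052 and 150 of 4722 kept cells. The part of the cell mix in the difference over all kept cells was not tested. Within classes, the log2 difference was 1.38 (SE 1.15, edgeR adjusted p = 0.800) in macrophages, -0.65 (SE 0.45, adjusted p = 0.502) in monocytes and 0.18 (SE 0.74, adjusted p = 1.00) in dendritic cells. In lymphocytes the summed levels of 1.33 and 1.33 against 1.43 and 0.837 CPM overlapped.

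The antibody differed by immunization in the same direction in 10 of the 11 sets. Median CD169 counts over the kept cells were 43.0 and 26.0 in the unimmunized against 4.00 and 3.00 in the immunized mice. These medians also follow the mix of cells. NK-like cells, high in this signal, were 209 of 2828 and 39 of 537 kept cells in the unimmunized mice. In the immunized mice they were 131 of 4052 and 34 of 4722. Pla2g2d-high cells numbered 348 and 90 against 489 and 177. The part of the cell mix in these medians was not tested. On the log2(count + 1) scale the immunized mice were lower by 2.38 in type 1 DC-like, by 1.75 in nonclassical monocyte-like, by 1.65 in C1q macrophage-like and by 1.29 in interferon-high monocyte-like cells, as differences of means over 2 mice each. The smallest such difference was in gamma-delta T-like cells, at -0.54. In each of these 10 sets both immunized mice were below both unimmunized mice, and B cell-like cells were the exception, at 2.89 and 2.40 in the immunized against 2.34 and 1.76 in the unimmunized mice.

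By class the difference was -1.65 in macrophages, -1.52 in monocytes, -1.44 in dendritic cells and -0.49 in lymphocytes, each with a two-sided exact permutation p of 0.333, the smallest that 2 mice against 2 allow. The macrophage value takes in the shallow C1q macrophage-like cells of unimmunized mouse 1 (median 1878 UMIs, CD169 4.43). In that mouse the matching Leiden cluster had 41 cells, a median of 9932 UMIs and a CD169 mean of 3.99. The hashtag counts differed the same way: the immunized mice were lower without overlap in 10 of 11 sets, with a median difference of -0.93 beside -1.11 for CD169. Relative to the hashtag counts of the same cells, an alternative added after the values were seen, the CD169 differences were -0.89, -0.46, -0.39 and 0.23 in the 4 classes. Relative to the mean of the other 5 antibodies they were -1.23, -1.10, -1.09 and -0.54. As each mouse had its own hashtag, reagent and mouse cannot be told apart, and the part of overall staining in the lower CD169 signal was not tested.

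**Figure D4:**
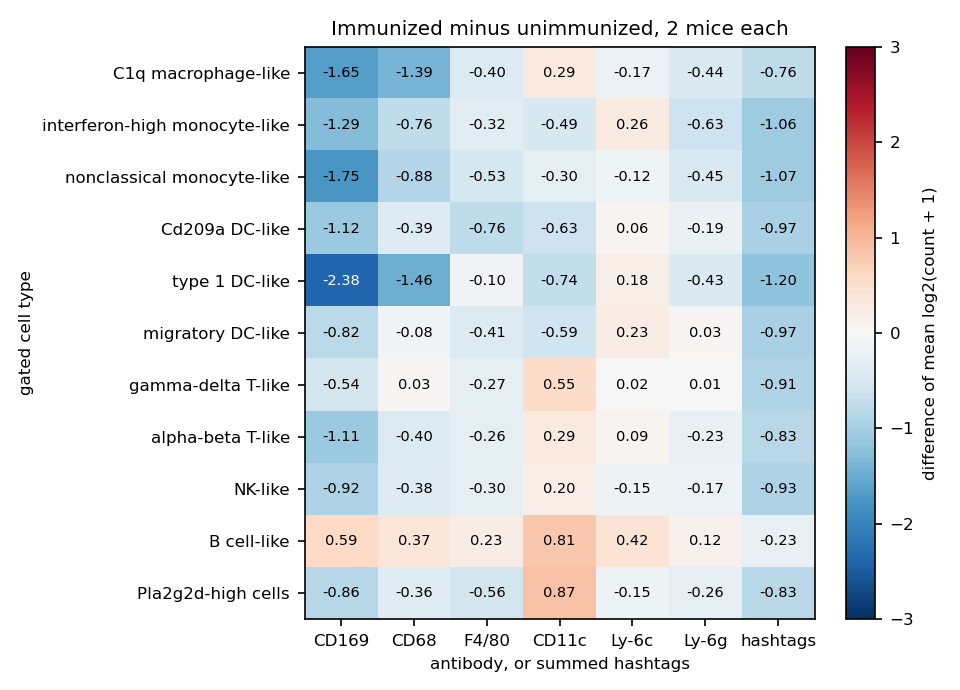
Difference in mean log2(count + 1) between immunized and unimmunized mice (2 each) for each antibody and the summed hashtags (columns) in the 11 sets with at least 10 cells in every mouse (rows), with blue for lower and red for higher in immunized mice. CD169 is lower in 10 rows and at 0.59 in B cell-like cells, and the hashtag column is lower in every row, with overlapping mice in the B cell-like row.

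The other antibodies shifted less. CD68 was lower without overlap in 7 of 11 sets and higher in 1, with a median difference of -0.39, and F4/80 was lower in 6 and higher in none, with a median of -0.32. CD11c was lower in 3 and higher in 5, with a median of 0.20. Ly-6c and Ly-6g overlapped between the conditions in 8 and 7 of the 11 sets. The CD169 median difference of -1.11 was thus the widest of the 6 antibodies in this run.

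The genes whose levels were most like those of Siglec1 over the 55 libraries, among 5720 genes with a mean of at least 4 log2 CPM, were Irf2bp2 (Pearson's r 0.79), Cxcl10 (0.73), Ifi211 (0.72), Hpse, a heparan sulfate cleaving enzyme (0.71), Iigp1, an interferon-induced GTPase (0.70), Fcgr1, a high-affinity Fc receptor (0.70), Pnp, Tor3a, Ctsc and Pitpna (0.69 each). Cxcl10 is also a gate gene of the interferon-high cells. Among those nearest to Tomato were Mapkapk2 and Ube2a (0.72 each), Sem1, Chmp4b, Scand1 and Arpc1b (0.71 each), Rhoa (0.70), Sh3glb1 (0.69), and Cebpb (0.68), and the lists of the 2 transcripts shared no gene. For the antibody, a list added after the levels were seen held Lgals1 (0.70), 1300017J02Rik (0.66), Rxra (0.63), Pla2g2d and Il18r1 (0.61 each), Il22ra2 (0.60), Jade1, Sptssa and Helz (0.59 each) and Ppp1r14b (0.57), of which Pla2g2d and Il22ra2 are gate genes of the Pla2g2d-high cells. The libraries share mice and differ in depth, and log2 library size itself had an r of 0.41 with Siglec1, 0.41 with Tomato and -0.28 with the antibody.

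Levels by capture are given for the types the results turn on. C1q macrophage-like cells had 25.1 and 25.5 CPM of Siglec1 in captures 1 and 2, interferon-high monocyte-like cells 46.7 and 35.0, and Pla2g2d-high cells 14.5 and 15.3. Inflammatory macrophage-like cells differed more, with 43.7 CPM from 94 UMIs and 72.6 CPM from 136 UMIs. Tomato differed between the captures in some types, with 8.60 against 4.19 CPM in nonclassical monocyte-like and 6.52 against 2.70 CPM in migratory DC-like cells. For the antibody, gamma-delta T-like cells had 5.74 and 5.87 and C1q macrophage-like cells 2.35 and 2.47. As each capture held cells of all 4 mice, the captures are technical splits of the same pool.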

How the data were processed

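Single-cell mRNA, antibody tags and hashtags of 4 mice were read from whole-number tables. Per the file headers and the study's methods, the deposited gene table holds UMI counts that the authors obtained with Cell Ranger 4.0.0 on an mm10 reference, with the 2 captures joined. The deposited antibody and hashtag counts came from CITE-seq-count, whose version was not stated in the sources used here. Whether read depth was equalized between captures when they were joined was not stated either. Each GEO sample is 1 data type of the pooled cells, so a cell's mouse came from its dominant hashtag. The unimmunized mice had hashtags 1 and 2 and the immunized mice hashtags 3 and 4.

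Cells needed 1 hashtag with at least 80% of hashtag counts and 10 counts, and at most 25% mitochondrial UMIs. Barcodes with more than 1 hashtag were thereby removed, which leaves doublets within a mouse, and no doublet caller was run. Total UMIs over kept cells were 18943001 and 3817845 in the unimmunized against 39020653 and 61983132 in the immunized mice. A cell entered a type when its marker score was at least 0.5, led the next by at least 0.25 and 3 markers (2 for the Cd209a list) had a UMI. All markers of each of the lists had a UMI in their own gate. Counts of at least 10 cells were summed per mouse and type and tested with edgeR 4.0.16 (quasi-likelihood, TMM, filterByExpr) in R 4.3.3, with type and condition as groups and 25 residual degrees of freedom, adjusting over all genes tested. Antibody values were averaged as log2(count + 1) per mouse and type and compared by exact permutation over mice, with every sign flip or split enumerated. Poisson intervals and the limit that a count of 0 allows (3 counts) cover counting error only. The model was tested on simulated data. Libraries of 1 mouse share the animal, known from the hashtag, so a fit with the mouse as a block was the paired alternative. Other alternatives were DESeq2 1.42.0, RLE normalization, no filter, other cell, hashtag and gate limits, single captures, Leiden clusters (scanpy 1.11.5, leidenalg 0.10.2) and leaving out each mouse.

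The named genes were Siglec1, Tomato, the 10 genes most correlated with each over the libraries and, of 3 lists, members called. The members and lists were chosen with earlier results of these data known. The Pla2g2d-high gate was added after clusters were seen. The interferon-high and Pla2g2d-high contrasts, libraries of at least 5 cells, cells of at least 3000 UMIs, values relative to hashtags or other antibodies, the 32-count limit, list counts under each setting, levels without the inflammatory cells and the genes nearest to the antibody were added after member values were seen. The labels do not say whether these mice received transferred cells. Tomato coordinates and sequences were not used here. Some genes that these rules name are not reported here.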

Additional observations from a re-analysis of the deposited data

Results flagged for a closer look

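The CD169 antibody signal of B cell-like cells was 0.59 higher in immunized than in unimmunized mice on the log2(count + 1) scale, with means of 2.64 and 2.05 and n = 2 mice each. It was marked for a closer look because both immunized mice lay above both unimmunized mice, whereas in the other 10 sets of cells both lay below. The difference between B cell-like cells and the other sets was not tested. In the same cells the antibodies to CD68, CD11c and Ly-6c were also higher in immunized mice without overlap, by 0.37, 0.81 and 0.42, while the summed hashtag counts overlapped, with a difference of -0.23. Siglec1 in B cell-like cells was at 7.55 and 11.6 CPM in the unimmunized and 3.59 and 11.5 CPM in the immunized mice.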

How the results depend on the processing

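Of 462 values under other settings for 31 results, 401 kept their direction and their side of the threshold, 5 lost and 8 gained a call, and 48 changed sign, all of them differences that were not called. The cause was not tested for any of them. The types that a class held also changed with the setting, as each type needed enough cells in every mouse. Dendritic cells were the type 1 type alone in capture 1, the Cd209a type alone in capture 2 and the migratory type alone with the stricter gate. Macrophages gained the MSM-like cells with a hashtag share of 60%, libraries of at least 5 cells and Leiden clusters. With the mouse as a replicate block, Siglec1 in interferon-high monocyte-like cells minus macrophages gained a call (0.99, edgeR adjusted p = 0.0364), and the block changed no other call (Siglec1 in macrophages minus lymphocytes 2.71). That difference was also called with no filter on low counts (0.94), a hashtag share of 60% (0.96), libraries of at least 5 cells (1.05) and cells of at least 3000 UMIs (1.29), and leaving out 1 mouse gave 0.78 to 1.27. Leaving out 1 mouse gave 2.36 to 3.00 for Siglec1 in macrophages minus lymphocytes, 1.68 to 3.54 minus dendritic cells, -0.14 to 0.10 minus monocytes and 1.71 to 2.28 in interferon-high minus nonclassical cells, with calls lost without unimmunized mouse 1, whose absence leaves 1 unimmunized mouse assumed to vary like the others. Macrophages minus dendritic cells was 1.88 in capture 1 and 0.99 in capture 2, without a call. Siglec1 in macrophages minus monocytes was -0.18 with a hashtag share of 60%, -0.21 in capture 1, -0.09 with libraries of at least 5 cells and -0.16 with cells of at least 3000 UMIs. Siglec1 in Pla2g2d-high cells minus lymphocytes kept its call under all 18 other settings.

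By immunization, Siglec1 ranged from -0.67 to 4.01 in dendritic cells, -0.69 to 0.34 in macrophages and -0.17 to 0.53 in monocytes when 1 mouse was left out. Without unimmunized mouse 1 the unimmunized dendritic cells held 3 Siglec1 UMIs, so a fold over them rests on very few counts. In dendritic cells it was 0.61 with a hashtag share of 90%, 0.02 with the stricter gate and 0.20 with 1 library per mouse. In lymphocytes it was 0.77 with libraries of at least 20 cells, 0.62 in capture 2, 0.29 with the stricter gate and 0.02 with 1 library per mouse. In macrophages it was 0.04 in capture 1 and 0.51 with cells of at least 3000 UMIs. In monocytes it was -0.14 with RLE, -0.05 with DESeq2, -0.10 and -0.05 with hashtag shares of 90% and 60%, -0.03 with at most 10% mitochondrial UMIs, -0.02 and -0.04 in captures 1 and 2 and -0.22 with the stricter gate.

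Tomato by immunization in lymphocytes was 2.01 with libraries of at least 20 cells and 2.20 with the stricter gate. In interferon-high minus nonclassical cells it was -0.05 with DESeq2, -0.19 with a hashtag share of 90% and -0.32 in capture 1. In macrophages minus dendritic cells it was -0.51 with a share of 90%, -0.46 in capture 1 and -0.41 with the stricter gate. With a hashtag share of 60% Tomato was called higher in macrophages than in dendritic cells (1.31, edgeR adjusted p = 0.0372) and lymphocytes (2.46, 8.31e-04). Leaving out a mouse gave Tomato a value for unimmunized mouse 2 alone.

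The antibody in macrophages minus dendritic cells turned to 0.45 with a hashtag share of 60%, 0.33 in capture 2, 0.53 with the stricter gate and 0.33 with libraries of at least 5 cells. By immunization in lymphocytes it was 0.23 relative to the hashtags. The difference for macrophages with a Siglec1 UMI was -0.12 with at most 10% mitochondrial UMIs and -0.12 in capture 2, and with a Tomato UMI 0.38 without thinning and 0.24 with at most 10% mitochondrial UMIs. In lymphocytes it was -0.22 by centred log ratio and 0.00 with Leiden clusters for Siglec1, and -1.01 with at most 10% mitochondrial UMIs for Tomato.

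Counts of called genes moved more. Against 3815 genes called between macrophages and lymphocytes, other settings gave 2169 to 5174. The ranges were 237 to 4118 against 1663 for dendritic cells, 237 to 3230 against 1135 for monocytes, 309 to 1134 against 901 for interferon-high minus nonclassical cells, 177 to 2375 against 700 for interferon-high cells minus macrophages and 3788 to 6272 against 5797 for Pla2g2d-high cells. By immunization they were 4 to 1045 against 663 in dendritic cells, 1 to 755 against 357 in monocytes, 0 to 280 against 15 in macrophages and 2 to 570 against 7 in lymphocytes. Tomato rests on 633 UMIs in all.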

Other observations

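When cells were grouped by Leiden clustering instead of marker gates, a cluster with MSM-like markers held 267 and 23 cells of the unimmunized against 169 and 17 cells of the immunized mice. Its Siglec1 UMIs numbered 17, 0, 14 and 0 in that order, and its CD169 antibody means on the log2(count + 1) scale were 5.14 and 4.69 in the unimmunized against 3.75 and 3.36 in the immunized mice. No cluster stood for the interferon-high monocyte-like cells.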
